A study of Mus musculus with 8 samples.

Results

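The enzymes of serine synthesis and of folate one-carbon metabolism were followed in adipose tissue macrophages (ATMs) of mice made obese by a high-fat diet (HFD) and of lean mice on a low-fat diet (LFD). The set held 8 genes, picked by exact symbol in the array annotation: Phgdh, Psat1 and Psph of serine synthesis, Shmt1 and Shmt2 of serine to glycine conversion, and Mthfd1, Mthfd2 and Mthfd1l of folate metabolism. All 8 were found among the 18820 genes on the array that carried a probe set with 1 symbol. Where a gene had several such probe sets, the brightest was used. ATMs were selected for F4/80 from epididymal adipose tissue of male, wild-type C57Bl/6 mice, and each array held RNA from a pool of mice. In each of 4 experiments 1 array of ATMs from obese mice was paired with 1 array of ATMs from lean mice, so that n = 4 pools per diet. Fat supplied 45% of the energy of the lard-based HFD in experiments 1 and 3, but 60% in experiments 2 and 4. Its share was 10% in each matched LFD. Per the sample labels, mice were fed for 16 weeks in experiments 1 and 3, 15 weeks in experiment 2 and 10 weeks in experiment 4. The paper's methods give a single duration. Age at the start of the diet was not given in the sources used here for these pools. Levels are log2 values, so a difference of 1 is a doubling, and a level belongs to its own probe set and was not set against that of another gene.

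Serine is made from an intermediate of glycolysis, phosphoglycerate. Phgdh oxidises it, Psat1 adds an amino group taken from glutamate, and Psph removes the phosphate. The serine hydroxymethyltransferases, Shmt1 in the cytosol and Shmt2 in mitochondria, then turn serine into glycine and pass its side-chain carbon to tetrahydrofolate. In mitochondria Mthfd2 oxidises this carbon and Mthfd1l releases it as formate. In the cytosol Mthfd1 takes formate up again and feeds purine and thymidylate synthesis. The pathway is known for its activity in dividing cells, and Psat1, Phgdh, Shmt2 and Mthfd2 are known targets of ATF4, a transcription factor of the amino acid stress response.

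Both arrays of experiment 1 stood apart from the others. The sorted marker Adgre1, which encodes F4/80, had levels of 8.58 (obese) and 6.54 (lean) there, against 9.95 to 10.95 on the other 6 arrays. The mean of 10 measured macrophage markers (of 11 listed) was 9.12 (obese) and 7.84 (lean) in experiment 1 and between 10.33 and 10.91 elsewhere. The mean of 16 endothelial markers was 10.15 (obese) and 10.50 (lean), against 5.51 to 8.94 elsewhere, and 15 of the 16 lay above a dim limit of 4.32 (log2 of 20) on every array. In a pool, fewer cells of a type and less RNA per cell cannot be told apart. Of the 8 enzymes, 7 lay above the dim limit on every array, and Shmt1 fell under it on 2 arrays.

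Psat1 and Mthfd2 had the largest differences, with levels 1.66-fold and 1.53-fold those of lean ATMs, and with Mthfd1 and Shmt2 they made up the 4 of 8 enzymes with a higher level in the obese pool of every experiment. Of all genes 11% were higher in all 4. None of the 8 was lower in all 4, against 7.43% of all genes. The other 4 enzymes, Phgdh, Psph, Shmt1 and Mthfd1l, had differences of mixed sign. No enzyme passed an adjusted p under 0.05 in limma with Benjamini-Hochberg adjustment over all genes, and 0% of all genes did (the lowest adjusted value was 0.982). At an unadjusted p under 0.05, 2 of the 8 passed (Psat1 and Shmt2), both higher, against 3.3% of all genes higher. Over all genes 621 were higher and 284 lower at that level, or 312 and 402 after the median of each array was set to 0. With experiment as a replicate block 4 of the 8 passed at an unadjusted p under 0.05 (Psat1, Mthfd2, Mthfd1 and Shmt2), all higher, against 7.95% of all genes higher, and again 0% of all genes and 0 enzymes passed the adjusted threshold. The smallest adjusted p of an enzyme with the block was 0.0754, for Psat1. All genes include dim ones (under the dim limit on more than 4 arrays), whereas 0 of the 8 enzymes were dim. Of the 10623 genes that were not dim, 474 were higher at an unadjusted p under 0.05, or 1208 with the block. In limma on these genes without the block, Psat1 passed (unadjusted p = 0.0497) and Shmt2 did not (0.0596). How many of them were higher in all 4 experiments was not counted. The median difference of the 8 was 0.17, against 0.0049 over all genes. Genes higher in all 4 experiments are necessarily higher in the 3 that remain without experiment 1. No further enzyme joined the 4 there, and 17.4% of all genes were higher in those 3.

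**Figure D1:**
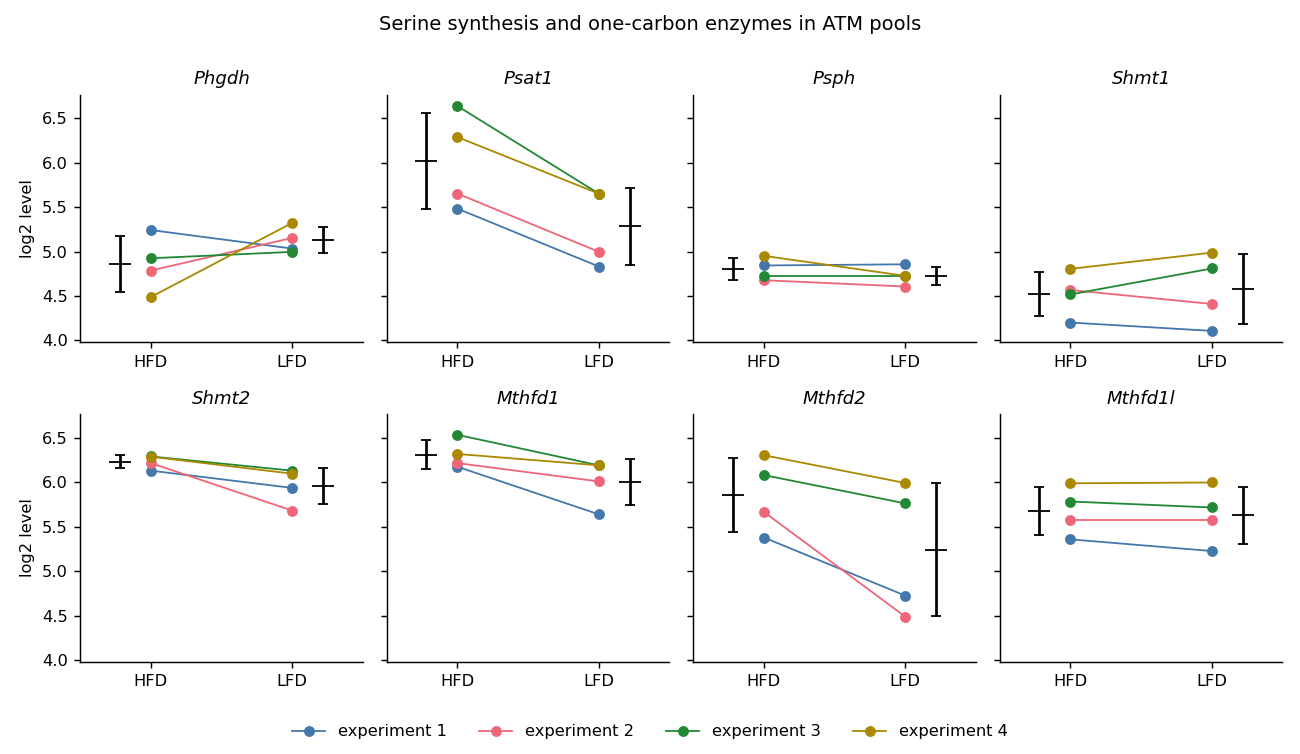
Log2 level (vertical axis) of the 8 enzymes in ATM pools from HFD-fed mice (left) and LFD-fed mice (right). Lines join the 2 pools of 1 experiment, and black bars are the mean ± SD of 4 pools. The lines of Psat1, Shmt2, Mthfd1 and Mthfd2 all run downwards to LFD, while those of Phgdh and Shmt1 cross. Levels are not comparable between panels.

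Psat1 had levels of 5.48, 5.65, 6.64 and 6.29 in ATMs from obese mice in experiments 1, 2, 3 and 4, against 4.83, 4.998, 5.65 and 5.65 in ATMs from lean mice. The diets overlapped across experiments, since the obese pools of experiments 1 and 2 lay no higher than the lean pools of experiments 3 and 4. Within experiments the difference was 0.65, 0.65, 0.99 and 0.64, a narrow spread (SD 0.17) around a mean of 0.73. Without the block, where the spread between experiments also counts, the SE of this mean was 0.31 (limma adjusted p = 0.982). With the block its SE was 0.095 and the 95% confidence interval ran between 0.49 and 0.97 (limma adjusted p = 0.0754). Without experiment 1 the difference was 0.76 (SE 0.30). The means of the 4 experiments spanned 0.99, more than the difference between the diets, with experiments 3 and 4 above experiments 1 and 2 in both diets. Psat1 therefore differed between diets by less than it did between experiments, but in the same direction and by a similar amount each time.

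The other enzymes of serine synthesis, which act before and after Psat1, had no such pattern. Phgdh, the dehydrogenase that commits phosphoglycerate to serine, had levels of 5.24, 4.79, 4.93 and 4.49 in ATMs from obese mice and 5.03, 5.15, 4.997 and 5.32 in ATMs from lean mice. The difference averaged -0.27 (SE 0.16, limma adjusted p = 0.988), and was 0.21 in experiment 1 and -0.37, -0.07 and -0.83 in experiments 2, 3 and 4. Without experiment 1 it was -0.42 (SE 0.15, limma adjusted p = 0.491), and without the obese pool of experiment 4 it was -0.14. Psph, the phosphatase of the last step, lay between 4.68 and 4.95 in ATMs from obese mice and between 4.61 and 4.86 in those from lean mice. The difference was 0.07 (SE 0.09, limma adjusted p = 0.999). Without experiment 1 the difference of Psph was 0.099. The difference of Psat1 exceeded that of the brightest Phgdh probe set in each experiment, by 0.44, 1.02, 1.06 and 1.47, and that of Psph by 0.41 to 0.99. These gaps to Phgdh depend on the probe set. In experiment 2 the second Phgdh probe set differed by 0.56, close to the 0.65 of Psat1.

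The sign of the difference depended on the probe set for Phgdh, and the size did for Shmt2. The annotation gave 3 probe sets for Phgdh. The numbers of probe sets on this array follow the genome, and of the 20 nearest-numbered probe sets with a RefSeq gene, 19 lay on chromosome 7 for the brightest, 19 on chromosome 3 for the second and 19 on chromosome 17 for the third. RefSeq (GRCm38.p6) places Phgdh on chromosome 3, at 98313171 to 98339969. For each of the other 7 enzymes at least 18 of the 20 neighbours of the probe set used lay on the gene's own chromosome. The second Phgdh probe set had levels of 4.56, 4.41, 4.72 and 4.93 in ATMs from obese mice and 4.80, 3.86, 4.72 and 4.98 in ATMs from lean mice. Its mean difference was 0.068 (limma adjusted p = 0.999), with 1 of 4 experiments higher and an exact tie in experiment 3. The third lay between 2.90 and 4.10, under the dim limit on every array, with a difference of 0.099. The positive mean of the second rested on experiment 2, with a difference of 0.56, where the lean pool (3.86) fell under the dim limit. Its differences were -0.24 in experiment 1 and -0.05 in experiment 4. The third was higher in 2 of 4 experiments. The negative mean of Phgdh thus belongs to the brightest probe set, and the other 2 do not settle the sign. The choice of probe set was looked at after the values were seen.

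**Figure D2:**
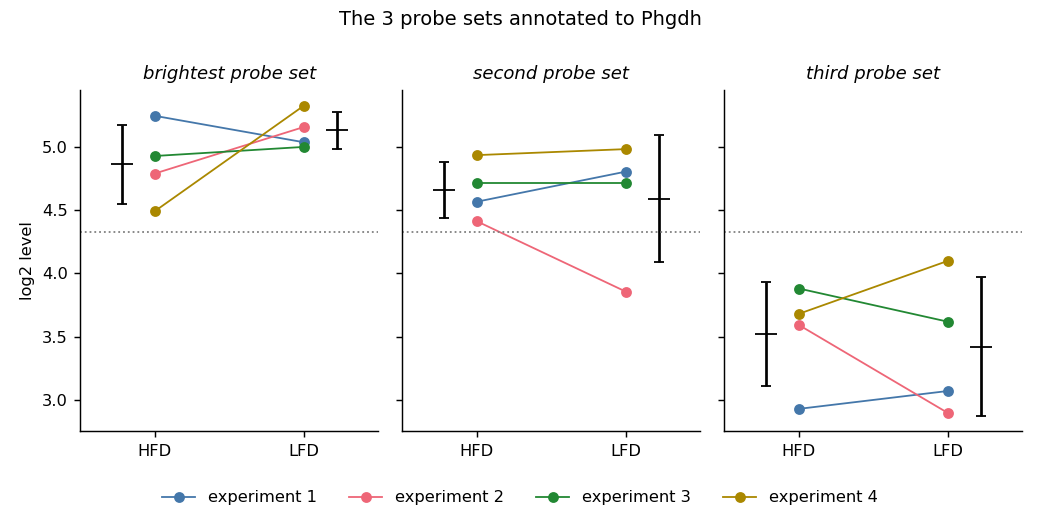
Log2 level (vertical axis) of the 3 probe sets annotated to Phgdh in ATM pools from HFD-fed mice (left) and LFD-fed mice (right). Lines join pools of 1 experiment, black bars are the mean ± SD of 4 pools, and the dotted line is the dim limit of 4.32. The brightest set averages lower in HFD (4.86, against 5.13 in LFD), whereas the second averages 4.66 in HFD and 4.59 in LFD.

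Shmt2, the mitochondrial serine hydroxymethyltransferase, had levels of 6.13, 6.21, 6.29 and 6.29 in ATMs from obese mice, against 5.94, 5.68, 6.13 and 6.10 in ATMs from lean mice. The diets met at a single shared value, since the lowest obese pool and the highest lean pool both read 6.13. The difference was 0.27 (SE 0.11, limma adjusted p = 0.982), with 0.53 in experiment 2 and 0.16 to 0.19 in the other experiments. Leaving out the lean pool of experiment 2 brought it to 0.18, and without experiment 1 it was 0.29 (SE 0.14). A further Shmt2 probe set, averaging 2.91 (obese) and 2.83 (lean), was dim, with a difference of 0.085, and higher in 3 of 4 experiments. Of the 20 nearest-numbered probe sets to this dim one, 20 lay on chromosome 7 and 0 on chromosome 10, where Shmt2 lies. Whether it measures Shmt2 was not tested. Averaged over both probe sets, the Shmt2 difference was 0.18. Shmt1, its cytosolic counterpart, had levels of 4.20, 4.57, 4.52 and 4.81 in ATMs from obese mice and 4.11, 4.41, 4.81 and 4.99 in those from lean mice. The difference was -0.06 (SE 0.21, limma adjusted p = 0.999). It was higher in experiments 1 and 2 and lower in experiments 3 and 4, and averaged -0.11 without experiment 1. In every experiment the difference of Shmt2 exceeded that of Shmt1, by 0.10, 0.38, 0.45 and 0.37.

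Mthfd2, the mitochondrial dehydrogenase and cyclohydrolase, had levels of 5.38, 5.66, 6.08 and 6.30 in ATMs from obese mice, against 4.72, 4.49, 5.76 and 5.99 in ATMs from lean mice. The obese pools of experiments 1 and 2 lay below the lean pools of experiments 3 and 4. The difference was 0.65, 1.18, 0.32 and 0.31 in experiments 1, 2, 3 and 4, a mean of 0.62 (SE 0.38, limma adjusted p = 0.990). With the block the 95% confidence interval ran between 0.20 and 1.03 (limma adjusted p = 0.250). The size rested on the lean pool of experiment 2, the lowest of the 8, without which the difference was 0.36. Without experiment 1 it was 0.60 (SE 0.41). The range of the 4 experiment means was 1.10. Mthfd1l, the mitochondrial formate-releasing enzyme that acts after Mthfd2, lay between 5.36 and 5.99 in ATMs from obese mice and between 5.23 and 6.00 in ATMs from lean mice. Its difference was 0.05 (SE 0.19, limma adjusted p = 0.999), with values between -0.0092 and 0.13 in the 4 experiments and a 95% interval with the block of -0.14 to 0.24. With array medians set to 0 it was -0.0048, and without experiment 1 it was 0.02. Mthfd1, the cytosolic enzyme with synthetase, cyclohydrolase and dehydrogenase activities, had levels of 6.17, 6.22, 6.53 and 6.32 in ATMs from obese mice and 5.64, 6.01, 6.19 and 6.19 in ATMs from lean mice. The difference was 0.30 (SE 0.15, limma adjusted p = 0.982), largest in experiment 1 (0.53) and smallest in experiment 4 (0.13). It was 0.18 without the lean pool of experiment 1 and 0.23 (SE 0.12) without both pools of that experiment. The 4 enzymes that were higher in all experiments were thus divided between the compartments, Mthfd2 and Shmt2 being mitochondrial and Psat1 and Mthfd1 cytosolic.

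**Figure D3:**
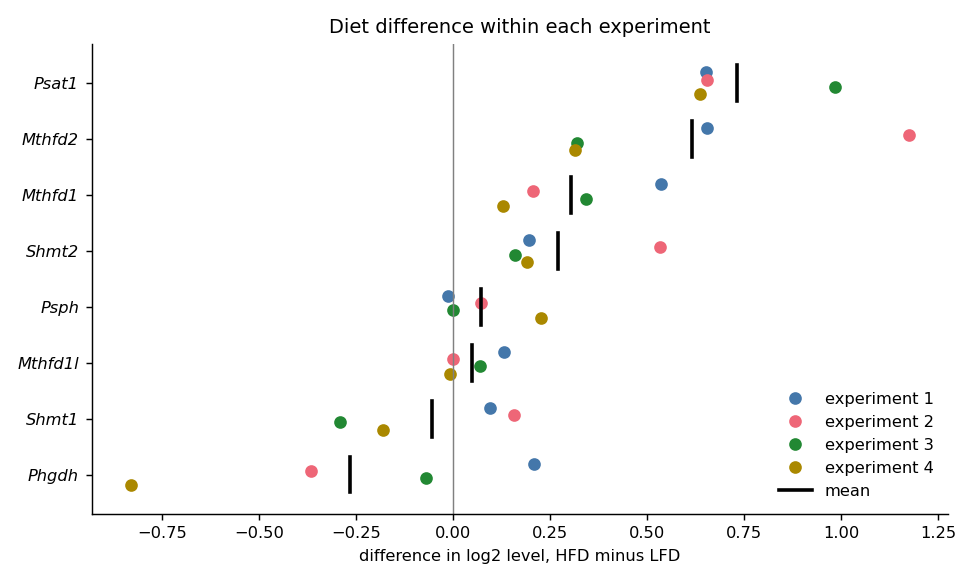
Difference in log2 level between HFD and LFD pools (horizontal axis, HFD minus LFD) for each enzyme. Each coloured point is 1 experiment and the black bar is the mean of 4. Psat1, Mthfd2, Mthfd1 and Shmt2 lie right of 0 in all 4 experiments. Phgdh has its lowest point, -0.83, in experiment 4.

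By experiment, 7, 6, 5 and 5 of the 8 enzymes were higher in ATMs from obese mice in experiments 1, 2, 3 and 4, and their mean difference was 0.31, 0.30, 0.19 and 0.059. Of all genes, 45.8%, 53.6%, 43.1% and 52.6% were higher in the same experiments. The fat content of the HFD was compared by the interaction of diet with fat content, experiment being a block. It gave an adjusted p of 0.951 or more for each enzyme in limma. The largest estimate, for Phgdh, was -0.67 (60% minus 45%, unadjusted p = 0.0431). It belongs to the brightest Phgdh probe set, and the interaction was not fitted for the others. The second Phgdh probe set differed by -0.24 and 0 in experiments 1 and 3 (45%) and by 0.56 and -0.05 in experiments 2 and 4 (60%). With 2 experiments per fat content, and with the duration of the diet also differing between them, fat content and duration cannot be told apart. Exact ties between arrays were common: 5 of the 8 enzymes had 2 arrays with exactly the same value, as had 44.4% of all genes, so a difference of exactly 0 was measured for Psph in experiment 3 and for Mthfd1l in experiment 2.

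The stretches before the RefSeq starts (GRCm38.p6) of the 4 enzymes that were higher in all experiments are shown so that their upstream sequence can be set side by side. Each is the 150 bases before the start, on the gene's own strand, with CCAAT, the element bound by NF-Y, in capitals on either strand (CCAAT or ATTGG). They lie at chr19:15925060-15925209 (Psat1, minus strand), chr6:83317605-83317754 (Mthfd2, minus strand), chr12:76255082-76255231 (Mthfd1, plus strand) and chr10:127522445-127522594 (Shmt2, minus strand). The starts used for Mthfd2 and Mthfd1 lie inside the span that RefSeq gives for the gene, and those of Psat1 and Shmt2 at its end.
Psat1: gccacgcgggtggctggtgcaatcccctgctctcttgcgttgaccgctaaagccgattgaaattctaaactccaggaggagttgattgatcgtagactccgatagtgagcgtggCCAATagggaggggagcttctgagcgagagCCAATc
Mthfd2: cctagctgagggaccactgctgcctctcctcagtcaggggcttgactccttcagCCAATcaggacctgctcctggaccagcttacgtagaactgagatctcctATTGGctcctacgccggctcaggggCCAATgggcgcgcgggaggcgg
Mthfd1: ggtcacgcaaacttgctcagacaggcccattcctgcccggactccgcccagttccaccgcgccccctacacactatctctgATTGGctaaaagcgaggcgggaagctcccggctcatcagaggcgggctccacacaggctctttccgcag
Shmt2: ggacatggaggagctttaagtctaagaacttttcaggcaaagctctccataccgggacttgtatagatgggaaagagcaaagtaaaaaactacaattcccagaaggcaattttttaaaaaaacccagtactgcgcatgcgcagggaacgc

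Mthfd2 carried 3 CCAAT elements in this stretch, Psat1 2, Mthfd1 1 and Shmt2 0. Each of the 8 enzymes matched at least 1 promoter window of 300 bases (250 before the start and 50 after), and Psat1 matched a further one, whose start lies inside the gene and which held 0. Of the 8 enzymes 6 had a CCAAT in a window, among them Phgdh, Psph and Shmt1, whose differences were of mixed sign. Of all 32851 windows listed by RefSeq, 37.4% held one. The ATF4 composite element TGATGNAAT, searched on both strands, was in 0.965% of all windows and the E-box CACGTG in 7.15%. Neither was found in a window of the 8 enzymes, which says only that these letters are not in those 300 bases.

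The pathways around the 8 enzymes were read from lists of 80 measured genes, of which 11 were higher and 1 was lower in all 4 experiments, against 11% and 7.43% of all genes. At an unadjusted p under 0.05 in limma 1 was higher and 0 lower, against 3.3% of all genes higher. With the block 8 were higher and 0 lower, against 7.95% of all genes higher, and 0 passed the adjusted threshold with or without the block. Of 12 further folate enzymes and carriers 0 were higher and 0 lower in all 4 experiments (median 0.05), and likewise 0 and 0 of 4 genes of glycine cleavage (median 0.10), the mitochondrial route that breaks glycine down. Mthfd2l, the adult-tissue relative of Mthfd2, differed by 0.0089 (SE 0.16). It falls outside the rule for named genes and was looked up after its values were seen.

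In the methionine cycle and transsulfuration (12 genes, median 0.06) Ahcy, which hydrolyses adenosylhomocysteine, was higher in all 4 experiments (0.40 (SE 0.24), adjusted p = 0.990). Mtr, the methionine synthase that uses methyl-tetrahydrofolate, was lower in all 4 (-0.41 (SE 0.28), adjusted p = 0.990). Mtr had levels of 6.40, 6.87, 6.87 and 6.88 in ATMs from obese mice and 6.54, 7.36, 7.87 and 6.89 in ATMs from lean mice. Its difference in experiment 4 was only -0.0083. Without experiment 1 the difference was -0.50 for Mtr and 0.37 for Ahcy. Among 11 carriers and converters of serine and glycine (median 0.03), Slc38a1, a transporter of glutamine and other neutral amino acids, had levels of 7.08, 8.55, 8.61 and 8.98 in ATMs from obese mice, against 5.20, 6.48, 8.13 and 7.79 in ATMs from lean mice. Its difference of 1.40 (SE 0.70, adjusted p = 0.982) was larger than that of any of the 8 enzymes, and it was 1.24 (SE 0.43) without experiment 1. With the block its SE was 0.27 (limma adjusted p = 0.160).

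Purine synthesis uses the formyl groups that Mthfd1 makes. Of 12 of its genes 4 were higher and 0 lower in all 4 experiments (median 0.11), against 11% and 7.43% of all genes. Atic, which adds a formyl group to the purine ring, differed by 0.36 (SE 0.23) and Adss, an adenylosuccinate synthase, by 0.36 (SE 0.16). Adssl1, the muscle form of that synthase, had levels of 6.76, 7.29, 7.91 and 8.06 in ATMs from obese mice, against 4.40, 6.14, 6.56 and 7.51 in ATMs from lean mice. Its difference was 1.35 (SE 0.63), with the lowest level in the lean pool of experiment 1, and 1.02 (SE 0.39) without experiment 1. In thymidylate supply 1 of 4 genes was higher in all 4 experiments, the thymidine kinase Tk1, with a difference of 0.90 (SE 0.40). The adjusted p was 0.982 for Adssl1, Adss and Tk1 and 0.990 for Atic. With the block the limma adjusted p was 0.181 for Adssl1, 0.366 for Adss, 0.1845 for Tk1 and 0.281 for Atic. Without experiment 1 the difference was 0.37 for Atic, 0.44 for Adss and 0.81 for Tk1.

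Among 25 measured ATF4 targets, which include transporters and aminoacyl-tRNA synthetases, 4 were higher and 0 lower in all 4 experiments. The shares over all genes were 11% and 7.43%. The median difference of the 25 was 0.05, with 15 positive and 10 negative. Slc7a1, a carrier of cationic amino acids, differed by 0.33 (SE 0.23), Aldh18a1, an enzyme of proline synthesis, by 0.23 (SE 0.10) and Sars, the seryl-tRNA synthetase, by 0.19 (SE 0.10). Atf4 itself had levels of 8.68, 9.07, 8.71 and 8.61 in ATMs from obese mice and 8.85, 8.78, 9.01 and 8.83 in those from lean mice. It differed by -0.10 (SE 0.12, adjusted p = 0.999) and was higher in 1 of 4 experiments. The protein level of ATF4, which is set largely by translation, was not measured.

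**Figure D4:**
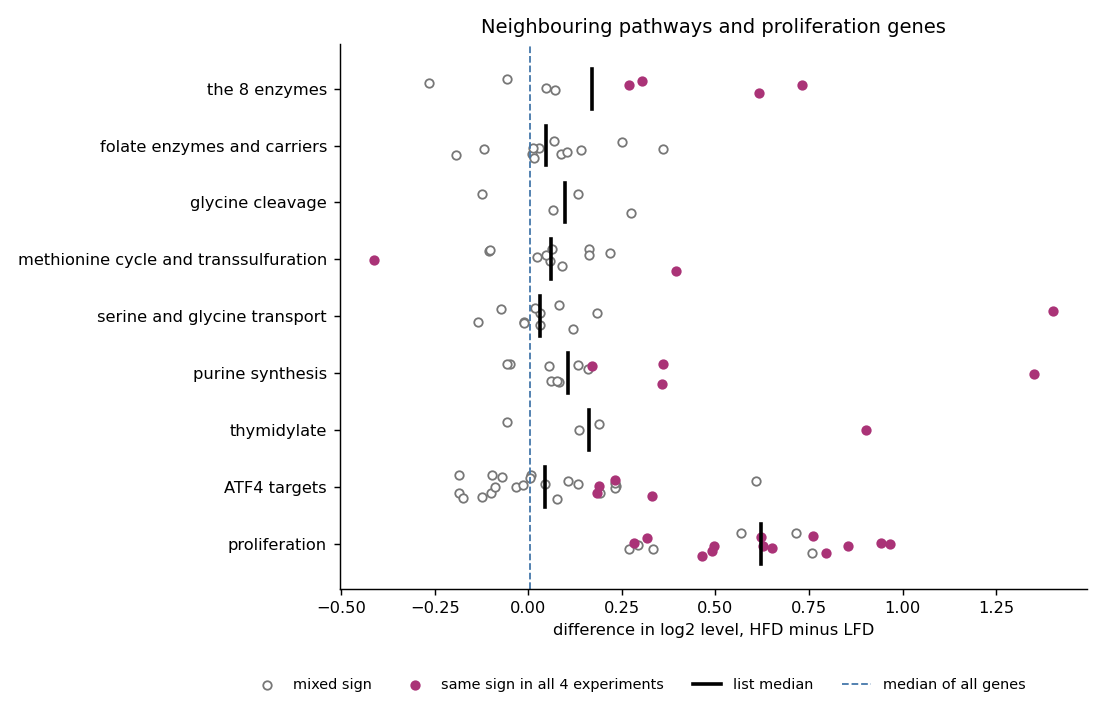
Difference in log2 level (horizontal axis, HFD minus LFD) for the 8 enzymes, the genes of 7 neighbouring pathway lists and proliferation genes. Each point is a gene, filled where the sign was the same in all 4 experiments, the black bar is the list median and the dashed line is the median of all genes. The proliferation list has a median of 0.62, the 8 enzymes 0.17, and the other lists lie between 0.03 and 0.16.

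Proliferation genes were mostly higher in the same obese pools. Of 19 measured (of 20 listed), 13 were higher and 0 lower in all 4 experiments, against 11% and 7.43% of all genes. Their median difference was 0.62 (0.65 without experiment 1). In limma 8 had an unadjusted p under 0.05, all higher, against 3.3% of all genes higher. With experiment as a block 16 did, all higher, against 7.95% of all genes higher. None passed the adjusted threshold in either fit. The background of all genes includes dim ones, whereas 0 of the 19 were dim. Of the 10623 genes that were not dim, 474 were higher at an unadjusted p under 0.05, or 1208 with the block. The mean of the list ranged between 6.24 and 7.17 in ATMs from obese mice and between 5.67 and 6.59 in ATMs from lean mice, and 18 of the 19 lay above the dim limit on every array. It differed by 0.57, 0.80, 0.79 and 0.20 in experiments 1, 2, 3 and 4. Mki67, a marker of dividing cells picked from this list after its values were seen, differed by 0.97 (SE 0.26, adjusted p = 0.982). With the block its SE was 0.17 (limma adjusted p = 0.127). The part of proliferating cells in the differences of the 8 enzymes was not tested.

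Markers of other cells also differed between paired pools. The endothelial mean differed by -0.35, -0.87, 2.07 and -1.71 in experiments 1, 2, 3 and 4 (7.22 to 10.15 in obese pools and 5.51 to 10.50 in lean pools). The mean of 6 fibroblast genes differed by 0.16, 1.07, 1.57 and -0.32, and 5 of the 6 lay above the dim limit on every array. The mean of 5 measured adipocyte genes (of 6 listed) differed by 0.24, -0.37, -0.05 and -0.61. Of these 5, 4 lay above the dim limit on every array, and Lep was higher and Lipe lower in all 4 experiments. The macrophage mean differed by 1.28 in experiment 1 and by -0.23 to 0.10 in the others. T cell, mast cell, eosinophil and neutrophil lists had 0 genes above the dim limit on every array, and the B cell and mesothelial lists had 1 each. The eosinophil mean (4 genes) was higher in obese pools in all 4 experiments, by 0.16, 0.41, 0.44 and 0.10. It ranged between 3.43 and 4.01 in obese pools and between 3.27 and 3.63 in lean pools, under the dim limit. Its genes differed in direction, since Ccr3 was higher and Prg2 lower in all 4 experiments. The B cell mean (4 genes) was lower in all 4, by values of -0.24, -0.25, -0.51 and -0.46, and ranged between 3.76 and 3.96 in obese pools and between 4.00 and 4.38 in lean pools. The part of these cells in the differences of the 8 enzymes was not tested.

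The genes most like Psat1 and Mthfd2 were sought among 10622 other genes that were not dim, by the root mean square distance between the 4 within-experiment differences. Nearest to Psat1 were Get1, a factor of the membrane insertion of tail-anchored proteins (distance 0.030), P2ry1, a purinergic receptor (0.080), Bhlhe41, a transcriptional repressor (0.083), Nlrc3 (0.099) and Nek2, a mitotic kinase (0.10). Nearest to Mthfd2 were Abhd17c, a depalmitoylase (0.15), the glutathione-dependent enzymes Gsto1 and Glrx (0.16 each), Dna2, a nuclease and helicase of DNA replication (0.17), and Plekho2 (0.17). Psat1 and Mthfd2 lay 0.45 from each other, Mthfd2 ranking 572 among the genes near Psat1. The nearest of the 8 enzymes to Mthfd2 was Shmt2, at 0.41 and rank 467. These distances rest on 4 values per gene and are a description.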

How the data were processed

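Total RNA of 8 pools of ATMs was hybridised to Affymetrix whole-transcript arrays. The values deposited by the authors are on the log2 scale. The submitters' processing notes name RMA, without a version, a procedure of background correction, quantile normalisation between arrays and summary of each probe set. Quantile normalisation assumes equal distributions on all arrays, whose medians lay between 4.25 and 4.39. Precision is limited by the number of arrays.

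Of 35556 features, 21218 had 1 symbol and gave 18820 genes, of which 18790 matched a RefSeq gene by Entrez ID. Features with several symbols (1881) or no annotation (12457) were not named. Diets were compared with limma 3.58.1 (lmFit and eBayes, R 4.3.3) without a block, p-values being two-sided and adjusted by Benjamini-Hochberg over all genes. Same-experiment arrays, paired by the experiment number in the labels, deviated together from their diet means (r = 0.889, 0.357, 0.652 and 0.186 in experiments 1 to 4, across genes, which do not replicate each other). Blocked values therefore stand beside the counts of calls at an unadjusted p. Pools came from separate experiments, and p-values measure the spread between these pools. The fits were tested on simulated data.

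The enzymes and lists were chosen with earlier results of these data known. The genes named are the 8 enzymes, up to 3 genes per pathway list with the largest difference among those of the same sign in all 4 experiments, Atf4, Adgre1 and the 5 genes nearest to each of the 2 enzymes that differed most. The paper's microarray section leaves its array test to a supplement, not used here. The alternatives tried were a fixed and a random block, omission of each array, of experiment 1 or 4 and of dim probe sets, centring of arrays, another prior, the methods' t-test, each fat content alone and the mean over probe sets. Promoter windows came from a RefSeq table (GRCm38.p6). List genes without a row of 1 symbol were not analysed here.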

Additional observations from a re-analysis of the deposited data

Results flagged for a closer look

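In 2 of 44 groups of 4 pools examined, the highest or lowest pool lay far from the others (Dixon's gap over range), about what chance gives at 1 in 20. Both were the obese pool of experiment 1, and neither concerns the 8 enzymes. Mtr read 6.40 there, against 6.87 to 6.88 in the other obese pools. Atic read 6.50 there, against 7.08 to 7.20 in the other obese pools.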

How the results depend on the processing

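Psat1, Mthfd2, Mthfd1 and Shmt2 stayed higher in obese pools under all 22 alternatives, with differences of 0.52 to 0.91, 0.36 to 0.87, 0.17 to 0.44 and 0.18 to 0.36. Many of these alternatives could not change the sign. A block, another prior, the t-test or omission of dim probe sets leaves the estimate as it is. Enzymes higher in all 4 experiments also stay higher when whole experiments are left out. None of the 8 enzymes passed the adjusted threshold under any alternative (smallest adjusted p = 0.0654, Psat1, with the replicate block and without dim probe sets). With the replicate block the adjusted p-values of Psat1, Mthfd2, Mthfd1 and Shmt2 were 0.0754, 0.250, 0.322 and 0.368. The block changed no adjusted call at 18820 genes. Combined with another choice after seeing the data, it let 25 genes pass without dim probe sets and 70 after centring, none of them among the 8, and 0 without experiment 1. The cause was not tested. The other enzymes changed sign. Phgdh was 0.068 in the 45% experiments alone, and 0.068 and 0.099 with its other probe sets, with or without the block. Psph was -0.0067 in the 45% experiments alone. Shmt1 ranged from -0.21 to 0.081 as single arrays were left out. Mthfd1l ranged from -0.087 to 0.17 that way, and was -0.0048 after centring, with or without the block, and -0.0046 in the 60% experiments alone. The count of enzymes lower in every experiment was 1 (Phgdh, brightest probe set) without experiment 1 and in the 60% experiments alone. For this count an omitted array took its whole experiment with it, and it stayed at 0 without experiment 2, 3 or 4. The median of the 8 was 0.12 after centring and 0.12 over mean probe sets, and 0.10 to 0.24 as arrays were left out. Signal near the dim limit (4.32) bounds what can be read for Shmt1, Phgdh and Mthfd2, whose lowest arrays read 4.11, 4.49 and 4.49, and for the dim second probe set of Shmt2.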
